A study of Macaca fascicularis with 56 samples.

Results

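The step from 2 to 4 h was examined in the blood of the cynomolgus macaques (Macaca fascicularis) that had received LR12 after an endotoxin challenge. It rests on 12 of the 56 arrays of the series: 6 animals, Y31309 to Y31314, each with 1 array at 4 h and 1 at 2 h, paired by the animal number. Members were chosen by arm and hour in the sample labels and not by any measured value, and the comparison covers all 16020 genes that could be tested. The other arms sampled at 0, 2, 4 and 8 h were a peptide control arm of 4 animals (Y31305 to Y31308), given the LR12 residues in scrambled order, and a vehicle arm of 4 animals (Y31301 to Y31304). Per the labels, an endotoxin challenge preceded treatment, but neither the dose of any agent, the age or sex of the animals, the timing of hour 0, nor whether vehicle animals were challenged is stated. RNA came from whole blood collected in PAXgene tubes, so each value sums all blood cells, and fewer cells of a type cannot be told apart from less RNA per cell.

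Endotoxin, the lipopolysaccharide of Gram-negative bacteria, is bound by CD14 and by the MD-2 and TLR4 receptor complex on monocytes and neutrophils. Signalling from that complex first switches on genes that need no new protein, the immediate early transcription factors and the targets of NF-kB, among them the genes of cytokines and of the inhibitors that end NF-kB activity. A later layer depends on interferon and other secreted products, and monocyte genes change again as blood cells are recruited and adapt. TREM-1 is a receptor of neutrophils and monocytes that amplifies this response, and LR12 is a peptide from TREM-like transcript 1 that acts as a decoy for its ligands. The contrast of 4 h with 2 h asks which genes were lower and which were higher at the later of these hours.

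Levels are given as log2 of the deposited array intensity. A change is the log2 value at 4 h minus that at 2 h with the standard error of limma after ±, and a gene was called, or said to rise or fall, at a Benjamini-Hochberg adjusted p below 0.05 over all genes. The middle of the arrays moved with the hour. The array median was 15.55 ± 2.67 (SD, n = 6) at 4 h and 17.78 ± 0.88 (n = 6) at 2 h, and the median change over all genes was -0.11, so changes of gene groups are given relative to it. The dim range of an LR12 array ended at log2 2.25, 2.15, 1.78 and 1.64 at 0, 2, 4 and 8 h (mean 20th percentile over animals), and a change that runs into this range cannot be sized. Of the called genes described here CCL20, CD36, CSF3, FOSL1, GP9, IL6, POPDC2, RALGPS1 and TIFAB had at least 1 value in it at 4 or 2 h, and no size is given for their change. Of 108 named genes that were called, 44 changed in size by over 1.5 times under at least 1 alternative, 27 of them when the probe sets of a gene were averaged and 15 with 16 added before the logarithm, and 0 of the 44 then had the opposite sign. The arrays split into a set with high and a set with low signals of their added poly-A control probes. In the LR12 arm, 2 arrays at 4 h (Y31310 and Y31311) and 1 at 2 h (Y31311) were of the high set, and 4 animals had low-set arrays at both hours.

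Between 2 and 4 h, 3209 of the 16020 genes were called in the LR12 arm (20%). Of these 1414 rose (8.83% of all genes) and 1795 fell (11.2%). The counts of list members below are to be read against these shares. The rise was seen in all 6 animals for 1135 genes, and the fall for 1426. The 12 largest rises and 12 largest falls named below were taken only from these genes. That all 6 animals moved one way is thus a condition of their choice and no result. For 972 genes (6.07%) the values of the 6 animals did not overlap between the hours. The split depended on the scaling: rises were 44.1% of the called genes as deposited, 52.6% after quantile normalization (1650 rose and 1488 fell) and 70.5% with each array centred on its median (2037 rose and 851 fell). With the 32 low-set arrays alone, chosen after the data were seen, 1372 genes rose and 1565 fell. Without a block for the animal, 849 rose and 997 fell.

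**Figure D1:**
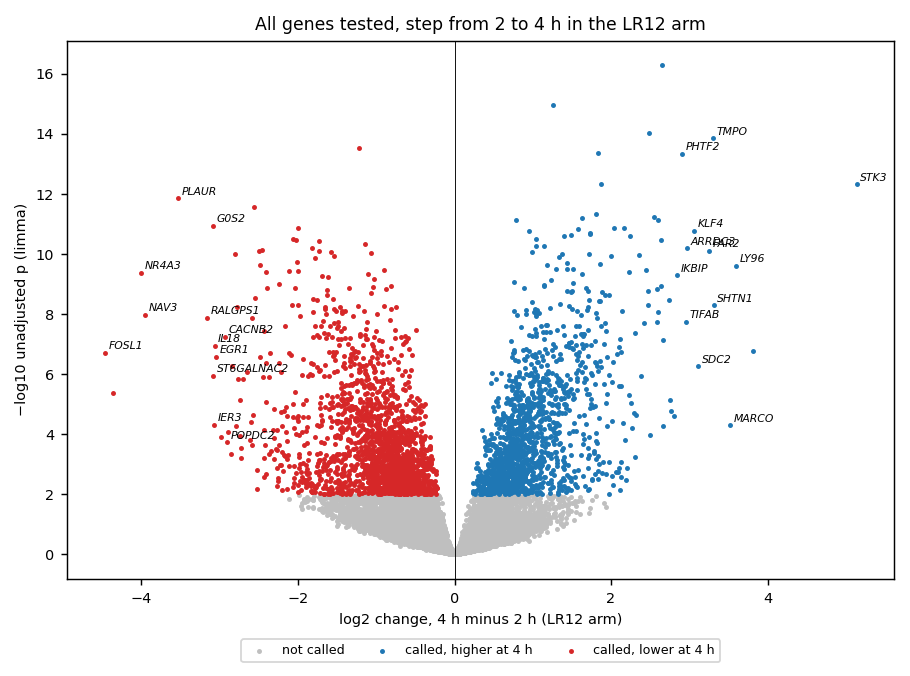
Change from 2 to 4 h in the LR12 arm (x axis, log2, 4 h minus 2 h) against the −log10 of limma's unadjusted p (y axis) for all 16020 genes, 1 point per gene. Called rises (blue, 1414) and called falls (red, 1795) both reach far beyond the middle, from STK3 at 5.14 to NR4A3 at -4.002, with FOSL1 and CCL20 lower still at sizes that are not defined. The genes labelled are the 12 largest rises and 12 largest falls that met the naming rule.

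Several early transcription factor genes fell. FOSL1, a subunit of the transcription factor AP-1, lay between -0.16 and 4.67 (median 2.64) at 4 h, against 5.62 to 8.09 (median 6.52) at 2 h (adjusted p = 1.09e-05). NR4A3, the gene of an orphan nuclear receptor induced within the first hour of many stimuli, lay between 4.48 and 6.29 (median 4.97) at 4 h, against 8.38 to 9.57 (median 9.23) at 2 h (-4.002 ± 0.49, adjusted p = 9.9e-08, and -2.55 over the mean of its probe sets). EGR1, a zinc finger transcription factor, lay between 8.01 and 9.23 (median 8.35) at 4 h, against 9.71 to 12.84 (median 11.85) at 2 h (-3.04 ± 0.49, adjusted p = 1.36e-05). In each of these genes every 4 h value was below every 2 h value. Of 23 measured immediate early genes 9 fell and 2 rose (8 fell and 5 rose with centred arrays), and the list's median was 0.22 below that of all genes. Besides those above, the falls included EGR3 and the stress-response gene PPP1R15A, and the smallest was FOSL2. The list did not move as one. KLF4 rose from a 2 h level below that at 0 h and is described further below. FOS, the best known AP-1 subunit, lay between 7.29 and 7.87 (median 7.39) at 4 h, against 5.32 to 6.79 (median 6.60) at 2 h, without overlap and higher at 4 h in all 6 animals. Its change was not called (1.09 ± 0.44, adjusted p = 0.076), but it was with centred arrays (1.30, adjusted p = 0.0237), with low-set arrays alone, and from the 24 or the 12 LR12 arrays alone (adjusted p down to 0.00114).

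Genes of the NF-kB system fell together: 14 of 19 measured members fell and 0 rose, and their median change was 1.23 below that of all genes. In single animals that relative median lay from -1.29 to -0.77. IER3, an early NF-kB target, lay between 6.72 and 8.35 (median 7.73) at 4 h, against 10.38 to 11.17 (median 10.69) at 2 h (-3.07 ± 0.67, adjusted p = 0.000768). RELB, an NF-kB subunit, lay between 7.32 and 9.27 (median 8.63) at 4 h, against 9.84 to 11.10 (median 10.79) at 2 h (-2.15 ± 0.43, adjusted p = 0.00027). For both the hours did not overlap. TNFAIP3, the gene of the ubiquitin-editing brake A20, lay between 10.50 and 11.94 (median 11.12) at 4 h, against 12.17 to 12.90 (median 12.84) at 2 h (-1.56 ± 0.41, adjusted p = 0.00512). NFKBIA, which encodes the inhibitor IkB alpha, lay between 11.90 and 12.18 (median 12.01) at 4 h, against 12.88 to 13.62 (median 13.07) at 2 h (-1.14 ± 0.20, adjusted p = 3.61e-05), with the 6 animals close together at 4 h. Neither gene's hours overlapped. NFKBIZ, a nuclear IkB protein that co-activates IL6, lay between 9.39 and 11.16 (median 10.73) at 4 h, against 10.99 to 12.57 (median 12.27) at 2 h (-1.51 ± 0.24, adjusted p = 1.02e-05), falling in all 6 animals with some overlap. The adhesion molecule gene ICAM1, a further NF-kB target, fell too (-1.65 ± 0.49, adjusted p = 0.0119), but without Y31310 its adjusted p was 0.0594. Over all alternatives tried, between 12 and 18 members fell and 0 rose.

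Cytokine and chemokine genes mostly fell or were not called, and not all of the falls were clear. IL1B, the gene of interleukin 1 beta, lay between 10.14 and 11.35 (median 11.04) at 4 h, against 12.08 to 12.48 (median 12.41) at 2 h (-1.44 ± 0.33, adjusted p = 0.00114), which is 2.71-fold lower at 4 h with no overlap between the hours. IL18, another cytokine matured by caspase 1, lay between 6.18 and 7.17 (median 6.50) at 4 h, against 8.83 to 10.43 (median 9.57) at 2 h (-3.06 ± 0.48, adjusted p = 7.24e-06). Again no values overlapped. CSF3, which drives neutrophil production, lay between 0.65 and 3.76 (median 1.78) at 4 h, against 3.33 to 5.90 (median 5.11) at 2 h (adjusted p = 0.00158). TNF was 5.34 at the median at 4 h and 6.33 at 2 h, and fell just inside the threshold (-0.95 ± 0.35, adjusted p = 0.0494); most alternatives ended that call, with an adjusted p of up to 0.251. IL6 fell likewise at low levels (adjusted p = 0.0191), and its call was lost without Y31309, Y31310 or Y31311 or with low-set arrays alone. Of 17 measured inflammatory cytokines 7 fell and 1, the B cell survival factor TNFSF13B, rose. Their median was 0.43 below that of all genes, and 0.22 above it with the stricter filter that drops dim genes.

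Among 12 early chemokines 3 fell and 0 rose, with 1 fall under the stricter filter on dim genes and 5 from the 12 arrays alone. The called share was 25%, against 20% of all genes. CCL20, which attracts cells through CCR6, lay between 1.10 and 2.05 (median 1.92) at 4 h, against 2.87 to 8.43 (median 5.97) at 2 h, with an adjusted p of 0.000121 and a fall in all 6 animals; its 4 h level was near the 20th percentile of the arrays, so the size of the fall is not defined. CCL2, the monocyte attractant, lay between 5.87 and 6.73 (median 6.48) at 4 h, against 7.51 to 10.01 (median 8.26) at 2 h (-2.26 ± 0.51, adjusted p = 0.00108) without overlap. CCL4 showed a change of -1.07 ± 0.48, adjusted p = 0.114, and CXCL8 one of 0.19 ± 0.32, adjusted p = 0.738; neither was called. CCL4 was lower at 4 h in all 6 animals, and it was called from the 24 LR12 arrays alone (adjusted p = 0.0289) and from the 12 arrays of these hours alone (adjusted p = 0.00103). Genes that restrain cytokine signalling fell as well in part: 6 of 19 fell and 1 rose, with 2 falls left when arrays were centred. TGFB1, the gene of transforming growth factor beta 1, lay between 8.41 and 9.84 (median 9.17) at 4 h, against 9.99 to 10.75 (median 10.45) at 2 h (-1.32 ± 0.24, adjusted p = 6.91e-05, and -0.81 with its probe sets averaged). SIGIRR, a decoy-like member of the interleukin 1 receptor family, lay between 5.85 and 7.31 (median 6.44) at 4 h, against 7.37 to 9.24 (median 7.62) at 2 h (-1.31 ± 0.26, adjusted p = 0.000252). In neither did the hours overlap. SOCS3, a feedback inhibitor of cytokine receptors, was not called (-0.28 ± 0.20, adjusted p = 0.36), except from the 12 arrays alone (adjusted p = 0.0494).

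Other large falls lay outside these lists. PLAUR, the urokinase receptor of monocytes and neutrophils, lay between 6.86 and 8.79 (median 7.88) at 4 h, against 10.41 to 12.17 (median 11.38) at 2 h (-3.53 ± 0.35, adjusted p = 2.25e-09), 11.5-fold lower at 4 h. G0S2, whose product inhibits fat breakdown by adipose triglyceride lipase, lay between 8.43 and 9.80 (median 9.24) at 4 h, against 12.10 to 12.59 (median 12.20) at 2 h (-3.09 ± 0.33, adjusted p = 1.08e-08). Both had been higher at 2 h than at 0 h, where their medians were 7.67 and 7.68. NAV3, the gene of a microtubule-binding protein, lay between 3.37 and 5.27 (median 4.56) at 4 h, against 7.69 to 9.35 (median 8.30) at 2 h (-3.95 ± 0.56, adjusted p = 1.1e-06). ST6GALNAC2, a sialyltransferase gene, lay between 7.05 and 9.13 (median 8.08) at 4 h, against 9.66 to 12.68 (median 11.11) at 2 h (-3.08 ± 0.53, adjusted p = 4.21e-05). CACNB2, a calcium channel subunit gene, lay between 4.50 and 5.61 (median 5.27) at 4 h, against 7.27 to 9.42 (median 8.09) at 2 h (-2.93 ± 0.44, adjusted p = 4.16e-06). The hours did not overlap in any of these 5 genes. RALGPS1, which encodes an exchange factor for Ral GTPases, fell (adjusted p = 1.35e-06), although 1 of its 4 other probe sets had the opposite sign. POPDC2, a cAMP-binding membrane protein gene, was the single one of the 12 largest falls whose hours overlapped (adjusted p = 0.00224). With the probe sets of a gene averaged the changes were smaller, -2.19 for PLAUR and -2.34 for NAV3.

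**Figure D2:**
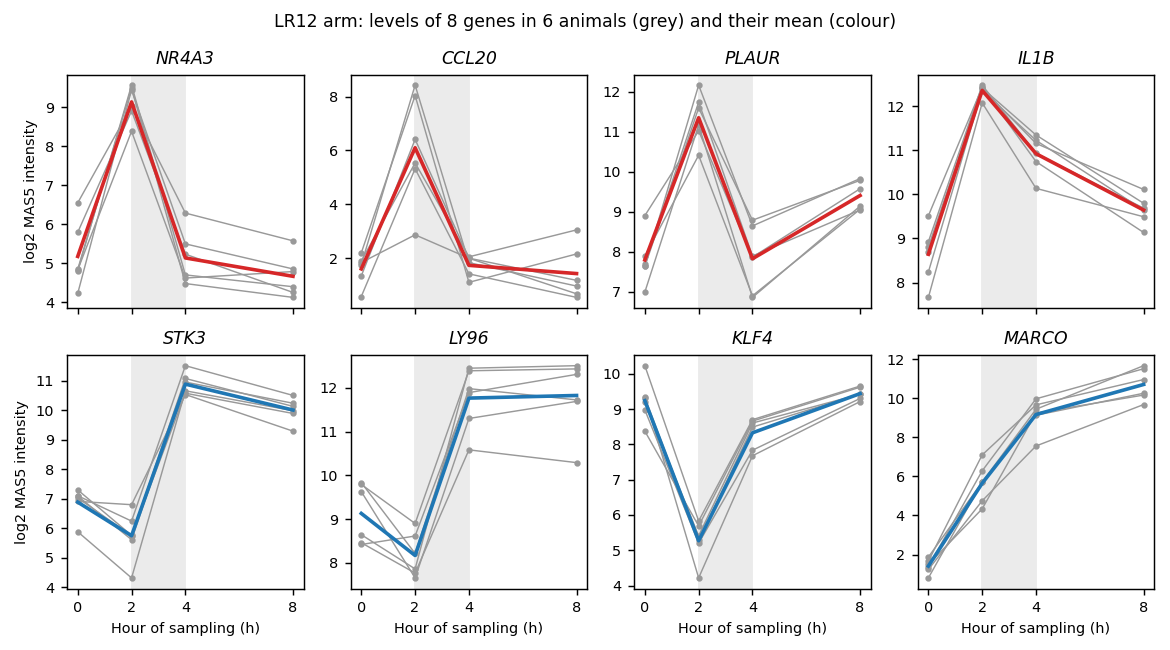
Levels (y axis, log2 MAS5 intensity) of 4 genes that fell and 4 that rose between 2 and 4 h in the LR12 arm, at 0, 2, 4 and 8 h (x axis), with 1 grey line per animal, the mean in colour and the step shaded. NR4A3, CCL20, PLAUR and IL1B peaked at 2 h, STK3, LY96 and KLF4 were lowest at 2 h, and the mean of MARCO was lowest at 0 h and highest at 8 h.

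The largest rise of all was that of STK3, a kinase of the Hippo pathway. It lay between 10.53 and 11.51 (median 10.80) at 4 h, against 4.31 to 6.79 (median 5.75) at 2 h, 35.2-fold higher at 4 h (5.14 ± 0.50, adjusted p = 8.54e-10) and every animal at 4 h was far above every animal at 2 h. LY96, the gene of MD-2 that presents endotoxin to TLR4, lay between 10.58 and 12.45 (median 11.94) at 4 h, against 7.65 to 8.90 (median 8.04) at 2 h (3.60 ± 0.43, adjusted p = 6.72e-08), again without overlap. Other endotoxin receptor genes did not share a step of that size: 5 of 17 measured members of the list rose and 1 fell, and the list's median was 0.15 above that of all genes, and at -0.003 without Y31313. TLR8, an endosomal receptor of RNA, lay between 10.82 and 11.70 (median 11.40) at 4 h, against 8.55 to 9.95 (median 9.53) at 2 h (1.92 ± 0.25, adjusted p = 3.68e-07). TLR1 and TLR6 rose by 0.87 and 0.82. TLR4 itself lay between 12.14 and 12.29 (median 12.20) at 4 h, against 11.88 to 12.83 (median 12.15) at 2 h, and its change of -0.06 ± 0.18, adjusted p = 0.849 was not called; 2 of its 3 other probe sets had the opposite sign. CD14, the co-receptor, fell (-0.64 ± 0.19, adjusted p = 0.012), but not when arrays were centred, normalized by quantiles or fitted without the animal block, nor without Y31310 (adjusted p up to 0.172).

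For TREM-1, the receptor whose ligands LR12 intercepts, 4 of 15 members of its pathway list fell and 1 rose, and 0 fell when arrays were centred on their medians or without Y31310 or Y31312. The called share was 33.3%, against 20% of all genes. TREM1 itself lay between 10.27 and 12.41 (median 12.20) at 4 h, against 10.94 to 12.89 (median 12.47) at 2 h and was not called (-0.65 ± 0.30, adjusted p = 0.125), though all 6 animals were lower at 4 h and the 12 arrays of these hours alone gave a call (adjusted p = 0.0281). The step was -2.03 in Y31310 and between -0.67 and -0.08 in the other animals. Over the alternatives the change of TREM1 ran from -0.77 to -0.38. TREML1, the platelet gene from which LR12 derives, changed by -0.74 ± 0.25, adjusted p = 0.0263, and TREM2, a related receptor gene of macrophages, by -0.88 ± 0.32, adjusted p = 0.0435. Both of these calls were lost under many alternatives, among them centred arrays, no animal block, and leaving out Y31310, Y31312 or Y31313. The signalling kinase gene BTK rose (0.81 ± 0.24, adjusted p = 0.0139) in all 6 animals, but not without Y31312 or without Y31313 (adjusted p up to 0.0621). Inflammasome genes moved both ways, 3 up and 3 down of 14 (42.9% called), with 1 fall left without Y31312 or without the animal block. CASP5, a caspase that senses endotoxin inside cells, lay between 6.05 and 6.75 (median 6.52) at 4 h, against 3.95 to 5.32 (median 4.76) at 2 h without overlap (1.78 ± 0.46, adjusted p = 0.00378). NLRP3, the sensor that activates caspase 1, changed by -1.11 ± 0.33, adjusted p = 0.0129 (-0.72 with its probe sets averaged), a call lost without the block or without Y31312.

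Other genes were far higher at the later hour. KLF4, a transcription factor of monocyte differentiation, lay between 7.68 and 8.70 (median 8.55) at 4 h, against 4.22 to 5.83 (median 5.34) at 2 h (3.05 ± 0.33, adjusted p = 1.17e-08); its median had been 9.25 at 0 h and was 9.42 at 8 h. IKBIP, whose product interacts with IkB kinase beta, lay between 7.79 and 9.26 (median 8.70) at 4 h, against 5.09 to 6.58 (median 5.61) at 2 h (2.84 ± 0.35, adjusted p = 1.12e-07), with medians of 9.30 at 0 h and 9.41 at 8 h. ARRDC3, an arrestin-like adaptor gene, lay between 9.89 and 11.69 (median 10.96) at 4 h, against 6.93 to 8.77 (median 8.16) at 2 h (2.97 ± 0.34, adjusted p = 2.71e-08). TIFAB, related to the NF-kB adaptor TIFA, lay between 5.69 and 6.64 (median 6.29) at 4 h, against 1.81 to 4.29 (median 3.68) at 2 h (adjusted p = 1.79e-06). In none of these 4 did the hours overlap. SHTN1, known from axon growth in neurons, lay between 6.95 and 8.70 (median 7.39) at 4 h, against 3.46 to 5.48 (median 4.21) at 2 h (3.31 ± 0.45, adjusted p = 7.05e-07). PHTF2 rose as well (2.90 ± 0.26, adjusted p = 1.03e-10), as did FAR2, a fatty acyl-CoA reductase gene (3.25 ± 0.38, adjusted p = 2.98e-08). TMPO, the gene of the nuclear lamina protein LAP2, lay between 10.96 and 11.77 (median 11.49) at 4 h, against 7.17 to 8.79 (median 8.46) at 2 h (3.30 ± 0.29, adjusted p = 5.64e-11). SDC2, the proteoglycan syndecan 2, lay between 7.63 and 8.95 (median 8.14) at 4 h, against 4.45 to 5.58 (median 5.11) at 2 h (3.11 ± 0.53, adjusted p = 2.35e-05). In none of these genes did the hours overlap. A rise in 6 of 6 animals had been a condition for naming them. FANCM, a DNA repair gene of the Fanconi anaemia pathway, had the smallest p of the step: it lay between 9.31 and 10.54 (median 9.82) at 4 h, against 6.93 to 7.70 (median 7.02) at 2 h (2.65 ± 0.20, adjusted p = 8.22e-13). With the probe sets of a gene averaged the changes were 1.69 for TMPO, 1.69 for FANCM, 1.45 for IKBIP and 1.13 for PHTF2.

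Monocyte genes rose in part. Of 12 measured markers 6 rose and 0 fell (50% called, against 20% of all genes). Their median was 0.91 above that of all genes, and in single animals it lay from 0.14 (Y31314) to 1.38 (Y31310) above. The other 6 were not called. Among them were VCAN, with steps of -0.168 to 0.254 in single animals, FCN1 (-0.322 to 0.707), CTSS (-0.41 to 0.179) and CDKN1C (-1.265 to 0.461). Of the genes that rose, CD163 and CD36 are also on the Fc and scavenger receptor list. CD163, the haemoglobin scavenger receptor, lay between 9.55 and 11.35 (median 10.30) at 4 h, against 7.64 to 8.53 (median 7.99) at 2 h (2.44 ± 0.30, adjusted p = 8.69e-08). CSF1R, whose product binds macrophage colony-stimulating factor, lay between 7.56 and 8.51 (median 8.15) at 4 h, against 5.31 to 6.68 (median 6.13) at 2 h (2.01 ± 0.36, adjusted p = 6.16e-05). Neither gene's hours overlapped. CSF1R nevertheless stayed under its 0 h median of 10.30, whereas CD163 was above its 0 h median of 9.10. CD36, a lipid scavenger receptor, rose in 5 of 6 animals (adjusted p = 0.00018), but with low-set arrays alone its adjusted p was 0.111. CX3CR1, the fractalkine receptor, rose (1.13 ± 0.31, adjusted p = 0.0067), with a call lost without the animal block or without Y31312.

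Among 15 Fc and scavenger receptor genes 5 rose and 2 fell; without the animal block 2 rose, and with low-set arrays 3. MARCO, a scavenger receptor of macrophages, lay between 7.56 and 9.97 (median 9.34) at 4 h, against 4.34 to 7.10 (median 5.71) at 2 h (3.52 ± 0.78, adjusted p = 0.000804), with no overlap, and its adjusted p was 0.0747 without the block. It was still climbing: its median was 10.60 at 8 h, and 1.44 at 0 h, under the arrays' 20th percentile. FCGR1A, the high-affinity IgG receptor that interferon gamma induces, lay between 10.82 and 12.02 (median 11.72) at 4 h, against 8.12 to 9.81 (median 8.89) at 2 h (2.66 ± 0.59, adjusted p = 0.000839); near-identical gene copies make its probe set uncertain, and without the block its adjusted p was 0.0706. OLR1, the receptor of oxidized LDL, fell by 2.65 on the log2 scale.

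Genes of antigen presentation took smaller steps. Of 15 MHC class II genes 3 rose and 1 fell (26.7% called, against 20% of all genes), with a median 0.47 above that of all genes. With centred arrays 6 rose, and 1 without the block or without Y31311, Y31313 or Y31314. The list's median level was 11.67, 9.48, 9.90 and 10.18 at 0, 2, 4 and 8 h. At 8 h 12 members were lower than at 0 h and 0 higher, where 25.8% of all genes were lower. HLA-DRA lay between 12.30 and 13.09 (median 12.53) at 4 h, against 11.69 to 12.97 (median 11.89) at 2 h (0.56 ± 0.11, adjusted p = 0.000252), higher at 4 h in each of the 6 animals though the ranges overlap. RFX5, a transcription factor of the class II promoters, moved the other way: it lay between 11.43 and 12.01 (median 11.80) at 4 h, against 12.62 to 12.89 (median 12.69) at 2 h (-1.01 ± 0.15, adjusted p = 3e-06), without overlap. B cell markers rose in 5 of 17, with 0 falls and a relative median of 0.59 (0.45 to 0.76 in single animals), but the animal block decided this count, which was 1 without it and 3 without Y31312 or Y31313. Called were 29.4%, against 20% of all genes. The list's median level was 6.39, 5.84, 6.00 and 6.06 at 0, 2, 4 and 8 h. At 8 h 11 members were lower than at 0 h and 0 higher. FCRLA and BANK1, both B cell signalling genes, rose by 1.32 and 1.06, and those calls were lost without the block; with its probe sets averaged FCRLA rose by 0.71. CD79A, part of the B cell receptor, was not called (-0.06 ± 0.22, adjusted p = 0.876).

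Antiviral genes induced by interferon rose in 19 of 41 with 0 falls, and the list's median was 0.66 above that of all genes. The rise was uneven across animals, from 0.13 above all genes in Y31310 and 0.26 in Y31314 to 0.96 in Y31309. TRIM22, an antiviral ubiquitin ligase gene, lay between 11.79 and 12.57 (median 12.41) at 4 h, against 10.11 to 11.75 (median 10.65) at 2 h (1.62 ± 0.24, adjusted p = 3.5e-06), without overlap. RSAD2, the gene of viperin, lay between 8.55 and 11.89 (median 10.85) at 4 h, against 7.56 to 10.29 (median 8.98) at 2 h (1.60 ± 0.27, adjusted p = 2.22e-05, and 0.98 with its probe sets averaged), up in all 6 animals but with overlapping hours. IFIT1 lay between 9.59 and 12.72 (median 11.75) at 4 h, against 9.29 to 12.68 (median 10.13) at 2 h and rose in 5 of 6 animals (0.79 ± 0.28, adjusted p = 0.0355). MX1 and ISG15, widely used interferon markers, were not called (-0.21 ± 0.31, adjusted p = 0.703 for MX1 and 0.17 ± 0.17, adjusted p = 0.55 for ISG15). The count of rises was 6 without the animal block, 8 with the animal as a random block, 11 without Y31312 and 12 without Y31313. RSAD2 and IFIT1 were among the calls lost without the block.

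Of 22 genes of the interferon gamma response 6 rose and 1 fell, so that 31.8% were called, against 20% of all genes. LAP3, an aminopeptidase gene of this response, lay between 11.41 and 12.25 (median 11.93) at 4 h, against 10.14 to 10.91 (median 10.46) at 2 h (1.40 ± 0.16, adjusted p = 1.39e-08), with no overlap. IRF7, the transcription factor that amplifies interferon production, lay between 7.68 and 8.98 (median 8.27) at 4 h, against 6.59 to 7.72 (median 7.54) at 2 h (0.91 ± 0.24, adjusted p = 0.00412). IRF1, induced early by interferon gamma and NF-kB, fell in all 6 animals (-0.78 ± 0.16, adjusted p = 0.000262), but the mean of its probe sets was not called (-0.42, adjusted p = 0.0683). GBP1 was not called (0.20 ± 0.23, adjusted p = 0.604). CXCL10, the interferon-induced attractant of T cells, lay between 8.13 and 11.32 (median 10.09) at 4 h, against 6.63 to 8.96 (median 8.78) at 2 h and rose in 6 of 6 animals (1.33 ± 0.47, adjusted p = 0.0365), a call that several alternatives ended (adjusted p up to 0.155); it was 1 of 4 such chemokines called.

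**Figure D3:**
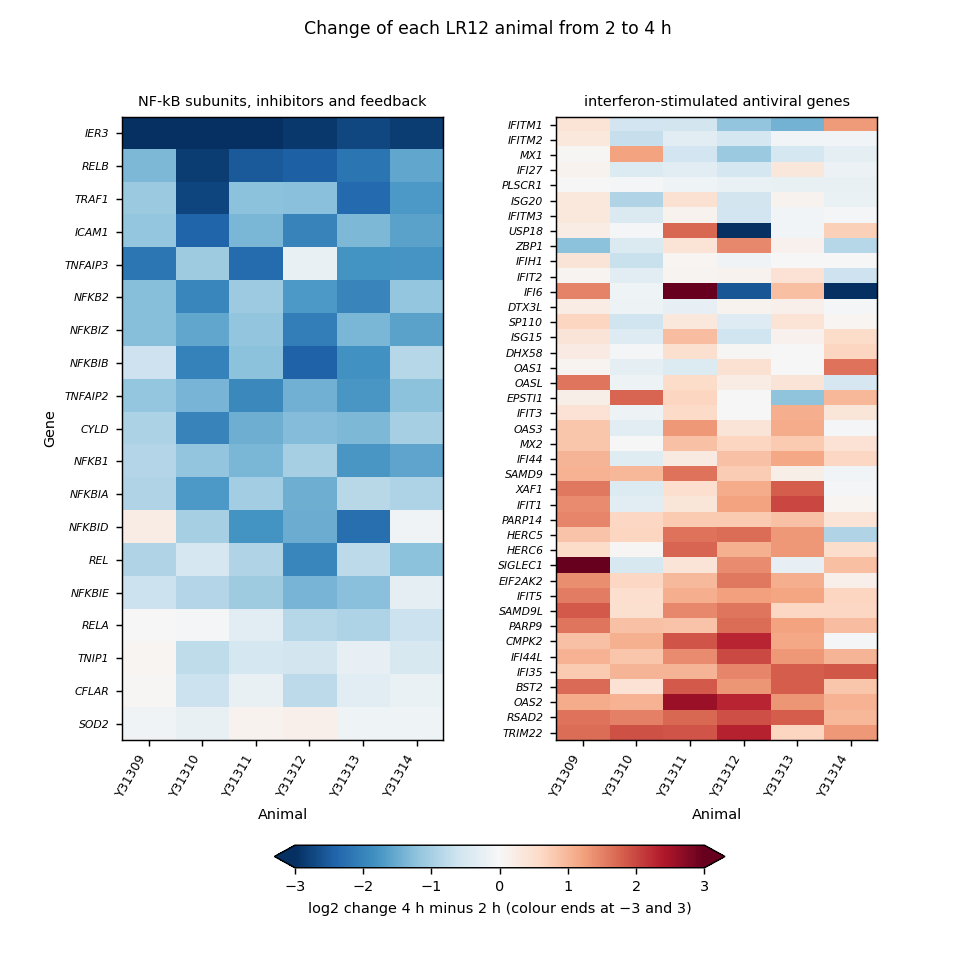
Log2 change from 2 to 4 h in each of the 6 LR12 animals (columns) for the 19 measured NF-kB genes (left) and the 41 measured antiviral interferon-stimulated genes (right), blue for lower and red for higher at 4 h. The NF-kB genes are blue in nearly every animal, whereas the interferon genes are palest in Y31310 and Y31314.

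Genes induced by glucocorticoids rose in 7 of 16 with 0 falls, at a median 0.48 above that of all genes. TSC22D3, the glucocorticoid-induced leucine zipper gene, lay between 12.62 and 12.92 (median 12.77) at 4 h, against 10.78 to 11.72 (median 11.37) at 2 h (1.47 ± 0.20, adjusted p = 7.26e-07), without overlap. FKBP5, a chaperone of the glucocorticoid receptor and one of its targets, lay between 11.60 and 12.10 (median 11.74) at 4 h, against 10.83 to 11.45 (median 11.11) at 2 h (0.65 ± 0.12, adjusted p = 7.84e-05), again without overlap. CD163 belongs to this list as well as to the monocyte markers. Of 20 heat shock and unfolded protein response genes 6 rose and 0 fell, all 6 of them linked to the endoplasmic reticulum or its stress response. HSP90B1, the chaperone GRP94, lay between 9.41 and 11.14 (median 10.66) at 4 h, against 8.91 to 10.21 (median 9.19) at 2 h (1.16 ± 0.24, adjusted p = 0.000358), and PDIA4, a disulfide isomerase gene, lay between 7.61 and 8.62 (median 8.24) at 4 h, against 6.91 to 7.37 (median 7.21) at 2 h (1.02 ± 0.20, adjusted p = 0.000223). Proteasome subunit genes rose in 6 of 21 and fell in 1, with 3 rises without Y31313. Called were 30% of the heat shock list and 33.3% of the proteasome list, against 20% of all genes.

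T cell genes fell. Of 19 measured markers 11 fell and 0 rose, and the median was 0.81 below that of all genes, from -1.27 to -0.53 in single animals. CD3D, a chain of the T cell receptor complex, lay between 8.76 and 10.35 (median 9.45) at 4 h, against 9.87 to 11.81 (median 10.91) at 2 h (-1.43 ± 0.24, adjusted p = 2.33e-05), lower at 4 h in each of the 6 animals although the ranges overlap. LCK and CD247, both T cell receptor signalling genes, fell by 1.10 and 1.44 on the log2 scale. Without the animal block 6 members fell, and LCK and CD247 were then not called; with probe sets averaged their changes were -0.60 and -0.89. Of 22 genes of NK and cytotoxic cells 4 fell and 0 rose, so that 18.2% were called, against 20% of all genes. The median of this list was only 0.13 below that of all genes. PRF1, the pore-forming perforin, lay between 3.30 and 7.26 (median 6.25) at 4 h, against 6.36 to 7.69 (median 7.05) at 2 h (-1.11 ± 0.28, adjusted p = 0.00296), but the change was -0.66 without Y31311 and -0.67 with low-set arrays alone. GZMB was not called (-0.59 ± 0.25, adjusted p = 0.0841), although it was lower at 4 h in all 6 animals and was called from the 24 LR12 arrays alone (adjusted p = 0.0495) and from the 12 alone (adjusted p = 0.0236). The summed level of the T cell list lay between log2 10.99 and 12.50 at 4 h and between 11.97 and 14.04 at 2 h, while that of the monocyte list lay between 14.41 and 14.82 at 4 h and between 14.06 and 14.71 at 2 h.

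Platelet markers fell in 9 of 13, with 0 rises and a median 0.71 below that of all genes, which lay between -0.89 and -0.55 in single animals. GP9, a subunit of the von Willebrand factor receptor, lay between 1.36 and 6.17 (median 2.35) at 4 h, against 5.38 to 6.26 (median 5.63) at 2 h and fell in 5 of 6 animals (adjusted p = 0.000831). CLU, the gene of clusterin, fell in all 6 (-1.40 ± 0.30, adjusted p = 0.000656). PTGS1, cyclooxygenase 1, which platelets use to make thromboxane, is not on the platelet list. It lay between 4.004 and 6.27 (median 5.001) at 4 h, against 6.37 to 6.99 (median 6.76) at 2 h (-1.59 ± 0.31, adjusted p = 0.000215) without overlap. With probe sets averaged the changes were -0.82 for CLU and -0.94 for PTGS1. Of the platelet markers 5 fell when arrays were centred and 2 without the block. Erythroid markers fell in 5 of 11 with 0 rises, at a relative median of -0.57, with 3 falls under either other scaling or without Y31312, and 1 without the block. CA1, the erythrocyte carbonic anhydrase, lay between 9.44 and 11.18 (median 10.01) at 4 h, against 10.65 to 12.29 (median 11.01) at 2 h (-1.08 ± 0.18, adjusted p = 1.96e-05, and -0.66 with its probe sets averaged). EPB41, which links the red cell membrane to its skeleton, is not on the erythroid list. It lay between 10.64 and 11.14 (median 10.75) at 4 h, against 11.94 to 12.21 (median 12.03) at 2 h (-1.22 ± 0.11, adjusted p = 9.36e-11), with tight groups and no overlap. Summed platelet levels lay between 12.85 and 13.52 at 4 h and between 13.59 and 14.19 at 2 h, without overlap, and summed erythroid levels between 14.16 and 14.78 at 4 h and between 14.50 and 15.40 at 2 h. How far these cell type markers account for the other changes was not tested.

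Ribosomal protein genes fell in 18 of 24 and rose in 1, but by little: the median was 0.30 below that of all genes, and 10 fell after quantile normalization and 5 with centred arrays. RPL37 lay between 12.64 and 13.07 (median 12.93) at 4 h, against 13.09 to 14.02 (median 13.52) at 2 h without overlap (-0.68 ± 0.10, adjusted p = 4.14e-06), with an adjusted p of 0.0532 over the mean of its probe sets. Cell cycle genes fell in 6 of 24 and rose in 0, so that 25% were called, against 20% of all genes (11.2% fell). The count of falls was 2 when arrays were centred or fitted without the block. It was 3 without any one of Y31309, Y31311, Y31312 and Y31313. KIF13A, a motor protein of endosome transport, lay between 9.998 and 10.85 (median 10.28) at 4 h, against 12.07 to 12.93 (median 12.42) at 2 h (-2.03 ± 0.23, adjusted p = 1.72e-08), without overlap. XRN1, the exonuclease that degrades decapped mRNA, lay between 12.26 and 12.70 (median 12.60) at 4 h, against 11.10 to 11.33 (median 11.28) at 2 h (1.26 ± 0.10, adjusted p = 8.69e-12), and BZW2, a regulator of translation initiation, lay between 12.37 and 12.76 (median 12.60) at 4 h, against 11.66 to 12.03 (median 11.76) at 2 h (0.78 ± 0.08, adjusted p = 7.37e-09). Both of these rose in all 6 animals without overlap.

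Of the markers of mature neutrophils 18.8% were called in the step and of the granule genes 10.5%, against 20% of all genes. Of 16 markers of mature neutrophils 1 rose and 2 fell, and of 19 granule genes 0 rose and 2 fell; none of the falls was called without the animal block or with centred arrays. The granule count depends on the fit: from the 12 arrays of these hours alone 6 fell and 1 rose, and 0 fell without Y31310, Y31311 or Y31312. MMP8, LTF and OLFM4, proteins of neutrophil granules, were not called, with changes of 0.44 ± 0.40, adjusted p = 0.5 for MMP8, -0.49 ± 0.61, adjusted p = 0.635 for LTF and 1.31 ± 0.86, adjusted p = 0.319 for OLFM4. Neither were PI3, the elastase inhibitor elafin (-0.23 ± 0.78, adjusted p = 0.88), or CA4, a carbonic anhydrase of neutrophils (0.70 ± 0.36, adjusted p = 0.174). OLFM4 was higher at 4 h in all 6 animals, and it was called from the 24 LR12 arrays alone, from the 12 alone (adjusted p = 8.67e-06) and with low-set arrays alone (adjusted p = 0.00207). The 12 arrays alone also called LTF (adjusted p = 0.0053) and CA4 (adjusted p = 0.00268). All 5 were far above their 0 h levels at both hours: OLFM4, for example, had medians of 4.62, 10.70, 12.32 and 11.84 at 0, 2, 4 and 8 h. RETN, the gene of resistin, rose in all 6 animals (1.37 ± 0.35, adjusted p = 0.00354), a call lost without the block.

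The remaining lists were mixed, and counts of 3 or fewer calls changed under several alternatives. Their called shares ran from 8.33% (eosinophil, basophil and mast cell markers) to 40% (coagulation genes), against 20% of all genes. Coagulation genes rose in 2 of 10 and fell in 2: PROS1, the anticoagulant protein S, lay between 8.37 and 8.78 (median 8.69) at 4 h, against 6.57 to 7.45 (median 7.02) at 2 h without overlap (1.62 ± 0.23, adjusted p = 1.1e-06), and PLAUR fell. THBS1 and tissue factor, F3, were not called (0.88 ± 0.42, adjusted p = 0.141 for THBS1 and adjusted p = 0.699 for F3), although the 12 arrays alone called THBS1 (adjusted p = 0.037). Adhesion genes rose in 1 of 14 and fell in 3; SELPLG, the leukocyte ligand of P-selectin, lay between 9.64 and 10.26 (median 9.88) at 4 h, against 7.89 to 8.83 (median 8.39) at 2 h without overlap (1.52 ± 0.24, adjusted p = 8.45e-06). In the eicosanoid list 1 of 12 rose, LTB4R, a leukotriene B4 receptor (1.28 ± 0.33, adjusted p = 0.0042, and 0.72 with its probe sets averaged), and 2 fell; PTGS2 was not called (0.30 ± 0.33, adjusted p = 0.584). Of 25 glycolysis and hypoxia genes 6 fell and 1 rose, with 3 falls when arrays were centred or without Y31312, and of 17 oxidative phosphorylation genes 2 fell and 1, NDUFS1 (0.63 ± 0.14, adjusted p = 0.000825), rose. Of 10 metallothionein and zinc transport genes 1 rose and 1 fell, of 11 dendritic cell markers 2 rose and 1 fell, and of 12 eosinophil, basophil and mast cell markers 1 fell. Among 9 genes often used as controls HPRT1 rose (0.67 ± 0.17, adjusted p = 0.00385) while GAPDH (-0.37 ± 0.10, adjusted p = 0.00779) and ACTB fell, and both falls were lost when arrays were centred.

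**Figure D4:**
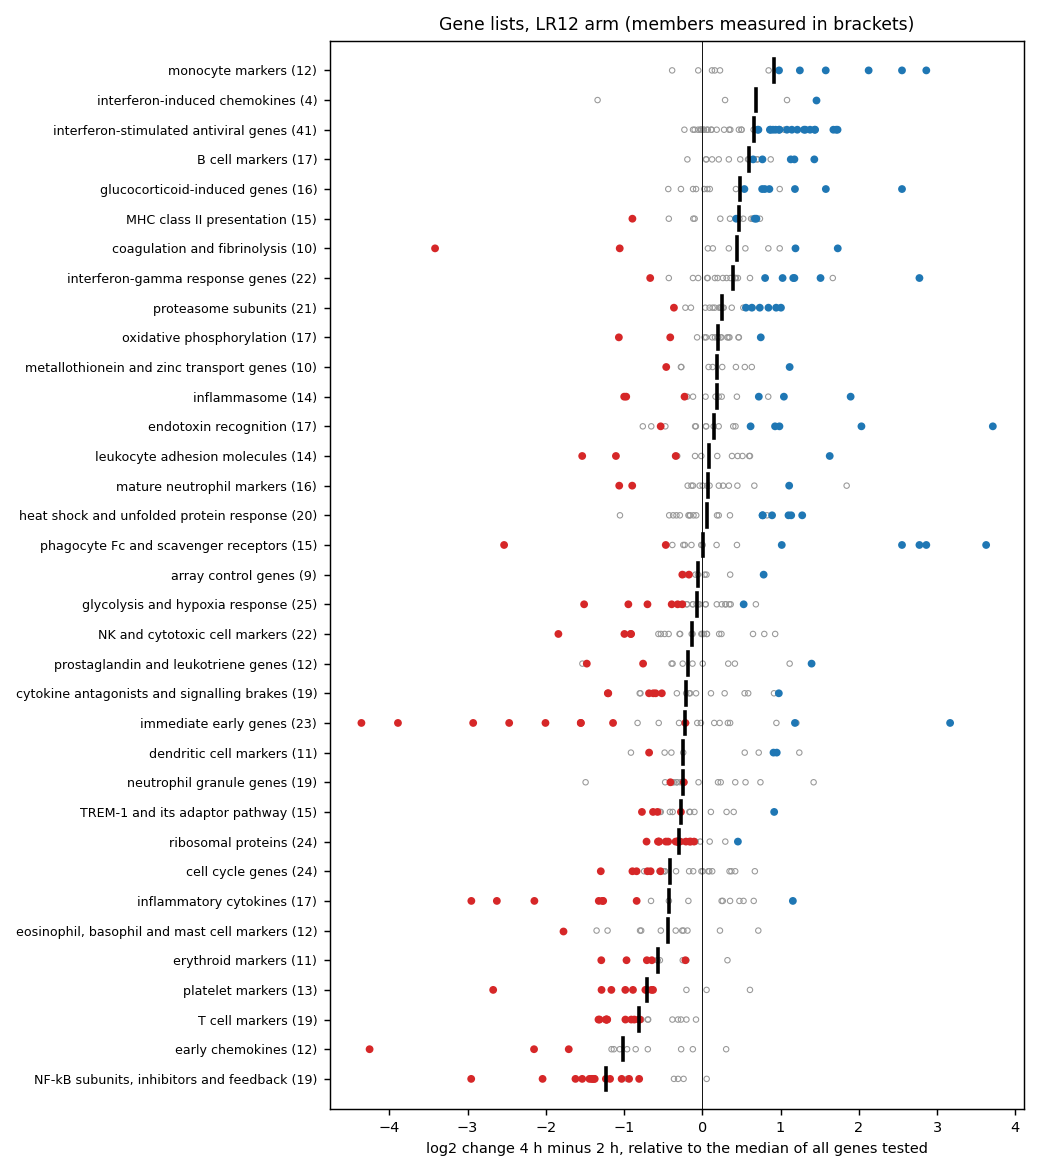
Log2 change from 2 to 4 h of each measured member of the 35 gene lists, relative to the median of all genes (x axis, 0 is that median), with lists down the page in order of their median (black bar). Filled points are called members, blue for rises and red for falls, and open points are members not called. Monocyte markers (median 0.91) stand at the top and NF-kB genes (-1.23) at the bottom.

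Set beside the hours that the step does not use, part of it was lasting and part was a return. LR12 animals at 8 h differed from the same animals at 0 h in 5953 genes (37.2%), of which 1815 were higher (11.3% of all genes) and 4138 lower (25.8%). Of the 1414 genes that rose between 2 and 4 h, 41.3% were higher at 8 h and 10.8% lower. Of the 1795 that fell, 52% were lower at 8 h and 6.02% higher. The shares depend on the scaling. With centred arrays 2758 genes were higher at 8 h and 2407 lower (rises 53.4% of the called genes, against 30.5% as deposited and 40.5% after quantile normalization). Then 48.4% of the step's rises were higher at 8 h, where 17.2% of all genes were, and 40.8% of its falls were lower, where 15% of all genes were. As deposited the step's rises held 32.2% of the genes higher at 8 h, and its falls 22.6% of those lower. The arrays differ, though the animals and the fitted spread are shared.

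Single genes showed both courses. NR4A3 was near its 0 h level by 4 h, with medians of 4.84, 9.23, 4.97 and 4.59 at 0, 2, 4 and 8 h, and 8 h against 0 h was not called (-0.51 ± 0.49, adjusted p = 0.453). NFKBIA ran at 11.22, 13.07, 12.01 and 11.13, so that its fall continued after 4 h, also without a call at 8 h (-0.30 ± 0.20, adjusted p = 0.251). IL1B was still above its start at 8 h (1.002 ± 0.33, adjusted p = 0.0134), as was PLAUR (1.61 ± 0.35, adjusted p = 0.000317), whose median was higher at 8 h than at 4 h. CD3D and SIGIRR were highest at 0 h and lower at 8 h, with changes at 8 h against 0 h of -1.78 ± 0.24, adjusted p = 1.63e-07 for CD3D and -2.15 ± 0.26, adjusted p = 2.46e-08 for SIGIRR. LY96 was higher at 8 h than at 0 h (2.70 ± 0.43, adjusted p = 3.6e-06), and so was STK3 (3.12 ± 0.50, adjusted p = 3.1e-06). TSC22D3 and KLF4 came back instead, with no call at 8 h (-0.21 ± 0.20, adjusted p = 0.435 and 0.20 ± 0.33, adjusted p = 0.687). LAP3 and FANCM were highest at 4 h: their medians were 10.75, 10.46, 11.93 and 10.87 for LAP3 and 8.29, 7.02, 9.82 and 7.82 for FANCM at 0, 2, 4 and 8 h, and neither was called at 8 h.

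The same step was then read in the other arms. In the peptide control arm 802 genes rose (5.01%) and 1624 fell (10.1%), 15.1% of all genes together, and in the vehicle arm 0 rose and 3 fell (0.0187%), with 1378 genes of the vehicle arm at an unadjusted p below 0.05. Here too the split depended on the scaling: rises were 33.1% of the called genes of the peptide control arm as deposited, 40.6% after quantile normalization and 70.1% with centred arrays (1170 rose and 499 fell). The peptide control count changed with the array sets and with single animals: all 4 of its arrays at 4 h, but 1 at 2 h, were of the high set, so hour and set are nearly the same there, and 357 genes were called with the set as a covariate, 785 without the block and 724 without Y31308.

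The difference between arms was tested directly. LR12 and peptide control steps differed in 0 genes by limma, with 1870 at an unadjusted p below 0.05 and a smallest adjusted p of 0.0555, for the pseudogene FBXW4P1; 6 were called without Y31310 and 5 or fewer without any other animal of either arm. That does not show the arms to be alike: KIF13A changed by -2.03 with LR12, and the difference from the peptide control was -1.68 (95% interval -2.41 to -0.95, adjusted p = 0.0936), and for FANCM it was 1.43 (95% interval 0.80 to 2.06, adjusted p = 0.0936). For LY96 the difference was 0.999 (95% interval -0.39 to 2.39, adjusted p = 0.598) and for NR4A3 -1.01 (95% interval -2.59 to 0.58, adjusted p = 0.649). LR12 and vehicle steps differed in 260 genes (1.62%), of which 170 were more positive with LR12 (1.06% of all genes) and 90 more negative (0.562%). With centred arrays the balance turned, with 34 more positive and 64 more negative. This count was 639 without vehicle animal Y31303 and 15 without Y31304, 84 without LR12 animal Y31312, and 35 without the block.

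Some of the largest changes were called with the peptide control too. STK3 changed by 3.64 ± 0.61 (adjusted p = 0.000286) in the peptide control arm and 1.45 ± 0.61 (adjusted p = 0.521) in the vehicle arm, and its step with LR12 was larger than with vehicle by 3.69 ± 0.79, adjusted p = 0.00943. LY96 changed by 2.60 ± 0.53 (adjusted p = 0.00158) in the peptide control arm and -0.02 ± 0.53 (adjusted p = 0.996) in the vehicle arm, and LR12 exceeded vehicle by 3.62 ± 0.69, adjusted p = 0.00421. PLAUR changed by -1.79 ± 0.43 (adjusted p = 0.00516) in the peptide control arm and -0.82 ± 0.43 (adjusted p = 0.596) in the vehicle arm, and the difference of LR12 from vehicle was -2.71 ± 0.56, adjusted p = 0.00768. NR4A3 changed by -2.997 ± 0.61 (adjusted p = 0.00152) in the peptide control arm and -0.64 ± 0.61 (adjusted p = 0.78) in the vehicle arm (LR12 minus vehicle -3.36 ± 0.78, adjusted p = 0.0181). For these 4 genes the peptide control step was called and lay between those of LR12 and vehicle. Like KLF4 below, they had been named for the size of their LR12 step. That step enters each difference, so smaller steps in the other arms are partly set by the choice. Other genes were called in the LR12 arm without a call in the peptide control arm. KLF4 changed by 1.10 ± 0.41 (adjusted p = 0.0602) in the peptide control arm and 0.58 ± 0.41 (adjusted p = 0.704) in the vehicle arm, CD163 by 0.84 ± 0.37 (adjusted p = 0.113) in the peptide control arm and 0.61 ± 0.37 (adjusted p = 0.65) in the vehicle arm and NFKBIZ by -0.50 ± 0.30 (adjusted p = 0.268) in the peptide control arm and 0.13 ± 0.30 (adjusted p = 0.917) in the vehicle arm. LR12 minus vehicle was 2.48 ± 0.53, adjusted p = 0.00943 for KLF4, 1.83 ± 0.47, adjusted p = 0.0327 for CD163 and -1.65 ± 0.38, adjusted p = 0.0181 for NFKBIZ. Their differences from the peptide control were not called: 1.95 (95% interval 0.88 to 3.03, adjusted p = 0.162) for KLF4, 1.60 (95% interval 0.64 to 2.56, adjusted p = 0.184) for CD163 and -1.02 (95% interval -1.80 to -0.24, adjusted p = 0.286) for NFKBIZ.

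Gene groups can be set side by side in the same way. NF-kB genes fell in 14 of 19 with LR12, 10 with the peptide control and 0 with vehicle. Antiviral interferon genes rose in 19 of 41 with LR12, 8 with the peptide control and 0 with vehicle. Monocyte markers rose in 6 of 12 with LR12, 1 with the peptide control and 0 with vehicle, and T cell markers fell in 11 of 19 with LR12, 13 with the peptide control and 0 with vehicle. Over all genes, rises were 8.83% with LR12, 5.01% with the peptide control and 0% with vehicle, and falls 11.2%, 10.1% and 0.0187%. A vehicle count of 0 therefore sets no list apart. In the same order, medians relative to all genes were 0.91, 0.68 and 0.33 for monocyte markers and 0.66, 0.32 and 0.095 for antiviral genes. They were -1.23, -0.94 and -0.08 for NF-kB genes and -0.81, -1.01 and -0.23 for T cell markers. The differences between these counts and medians were not tested, and the arms of 4 animals had larger standard errors than the arm of 6.

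**Figure D5:**
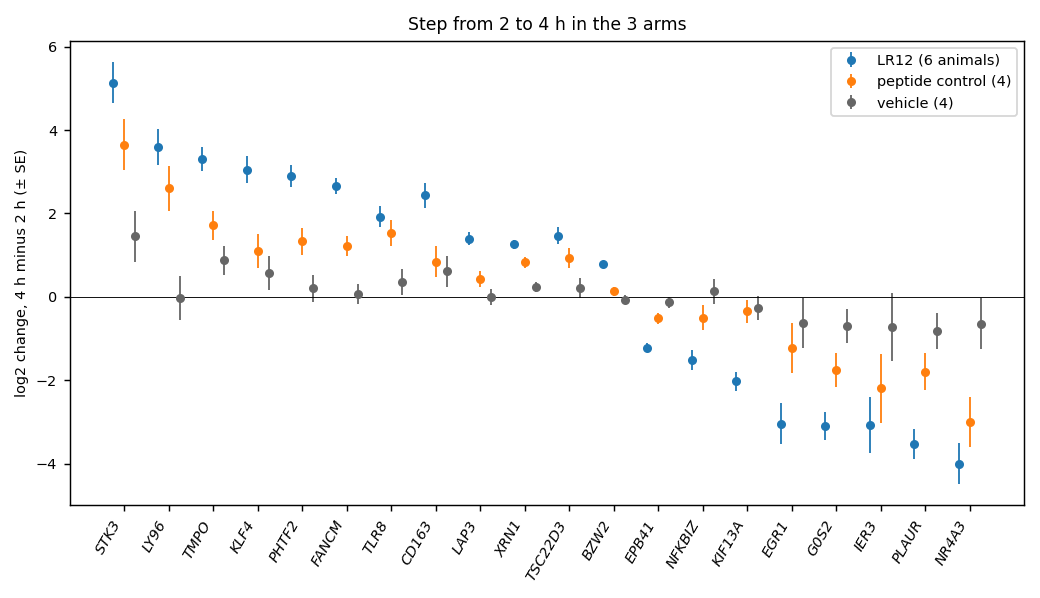
Mean log2 change from 2 to 4 h (y axis, ± SE of limma) of 20 genes (x axis) in the LR12 (blue, 6 animals), peptide control (orange, 4) and vehicle (grey, 4) arms. The genes were picked with their values known. STK3, at the left, changed by 5.14 with LR12, 3.64 with the peptide control and 1.45 with vehicle, and NR4A3, at the right, by -4.002, -2.997 and -0.64.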

How the data were processed

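Blood RNA of 14 macaques was read on human genome arrays, 56 in all, per the labels after NuGEN whole blood amplification with biotin. The deposited intensity values were made by the authors with MAS5, per the submitters' processing notes. Its version and settings are not given in the sources used here. MAS5 scales each array; the mean after trimming 2% of values at each end was 150.03 or 150.04 on every array. Logarithms to base 2 were taken with no further scaling, and probe sets above the array median on at least 4 arrays were kept (38826 of 54675). Each gene was read by its brightest kept probe set with exactly 1 symbol (41097 had 1, 1801 several, 11777 none). Of the 16020 genes 7881 had another kept probe set and 13561 a symbol in the macaque gene table. Human probes on macaque RNA do not allow levels to be compared between genes.

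The test was limma 3.58.1 under R 4.3.3 (lmFit, eBayes with trend and robust), two-sided, on all 56 arrays, with a mean per arm and hour and the animal as a block (33 residual degrees of freedom), and p-values were adjusted by Benjamini-Hochberg over all genes. The labels number the animals, so that the arrays of an animal pair: after removing group means they correlated at a mean of 0.18, against -0.0294 between animals, and each LR12 animal's 2 and 4 h arrays at 0.116 to 0.322. No 2 arrays held identical values. On simulated data with 100 genes each, the LR12 step recovered 33% of log2 changes of 1 and 80% of changes of 2. Only 200 of 16020 genes were changed there, whereas 20% were called in the data. These shares therefore do not give the recovery in the real step.

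Named were the 12 largest rises and falls seen in 6 of 6 animals with named symbols and means above the arrays' 20th percentile, the 2 largest called members of each of 35 lists, a fixed set of genes, and the 5 smallest p of each difference between arms; other members given were chosen after their values were seen. The members and lists were chosen with earlier results of these data known. Alternatives were no block, a random block (statmod 1.5.0), 2 other scalings, an offset of 16, 2 other filters, the array set as covariate, averaged probe sets, fewer arrays and each animal left out. Array number limits the precision. No promoter sequence was used here.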

Additional observations from a re-analysis of the deposited data

Results flagged for a closer look

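For 26 of the 129 named genes the step from 2 to 4 h differed between the LR12 and vehicle arms. This was by the test of the difference itself (limma, adjusted p below 0.05), which called 1.62% of all genes. Many genes had been named for their step in the LR12 arm, which enters the difference. Others had been named for the smallest p of a difference between arms, the one tested here included. The higher share among named genes is therefore partly set by how they were chosen, and no conclusion is drawn from it. The differences, LR12 minus vehicle on the log2 scale, were 3.69 for STK3, 3.62 for LY96, 3.1 for CD36, 2.82 for SHTN1, 2.7 for PHTF2, 2.61 for TIFAB, 2.59 for FANCM and 2.48 for KLF4. They were 2.42 for TMPO, 2.37 for IKBIP, 2.09 for ARRDC3, 1.83 for CD163, 1.58 for PROS1, 1.56 for TLR8, 1.39 for LAP3, 1.25 for TSC22D3, 1.02 for XRN1, 0.91 for PSMA3 and 0.85 for BZW2. Among genes that fell with LR12 they were -3.36 for NR4A3, -2.71 for PLAUR, -2.39 for G0S2, -1.76 for KIF13A, -1.65 for NFKBIZ, -1.09 for CA1 and -1.09 for EPB41. The sizes for CD36 and TIFAB are not defined, as both had 2 h values in the dim range of the arrays. Single vehicle animals move this comparison, whose count over all genes was 15 without Y31304 and 639 without Y31303, and with centred arrays 34 genes were more positive with LR12 and 64 more negative.

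In 5 of the 129 genes 1 LR12 animal stood apart from the other 5 in its step, as chance alone does in about 1 gene in 20. Animal Y31310 did so for FOS (2.31), IER3 (-3.82) and TREM1 (-2.03). Animal Y31309 had the smallest step of HLA-DRA (0.12), and Y31314 that of XRN1 (0.97). The arrays of Y31310 were of the low poly-A control set at 2 h and of the high set at 4 h, whereas Y31309 and Y31314 had low-set arrays at both hours. The part of the array sets in these steps was not tested gene by gene.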

How the results depend on the processing

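Of the LR12 step, the 3209 calls became 1846 without the replicate block (849 up, 997 down), and with centred arrays 851 genes fell; leaving out 1 animal gave 2301 to 3086 calls, 1046 to 1375 up and 1255 to 1820 down. The other planned settings left these counts within 1.5 times, as did low-control arrays alone, added after seeing the data. The peptide control step gave 785 genes without the block, 357 with the array set as covariate, and 724 to 2612 without 1 animal. By limma the vehicle step gave 26 genes with a random block, 0 without a block, after quantile normalization, with 16 added, with the stricter filter and with the array set, and 0 to 7 without 1 animal. LR12 minus peptide control gave 1 gene with a random block or averaged probe sets, 2 with centred arrays or the stricter filter, and 0 to 6 without 1 animal. LR12 minus vehicle gave 35 without the block, 98 with centred arrays (34 more positive, 64 more negative), 420 with the array set, 122 with averaged probe sets, and 15 to 639 without 1 animal. For LR12 at 8 h against 0 h it was 5067 to 5617. Relative list medians turned sign, by at least the SD between animals, for inflammatory cytokines (0.22 with the stricter filter), leukocyte adhesion (-0.19 with low-control arrays alone, -0.19 without Y31310) and endotoxin recognition (-0.003 without Y31313); without 1 animal they ran from -0.19 to 0.209 for adhesion and from -0.003 to 0.2424 for endotoxin recognition. Lists near 0 also crossed it by less than that SD: dendritic cell markers (-0.24, and up to 0.19 without Y31310), heat shock and unfolded protein response genes (0.06, and down to -0.11 after quantile normalization), control genes (-0.06, and up to 0.04 over averaged probe sets) and Fc and scavenger receptors (0.0047, and down to -0.04 without Y31311). No named gene that was called turned sign with a call; 9 named genes are not tested under the stricter filter. The causes were not tested. Sizes of 44 of 108 called named genes moved by over 1.5 times, 27 with averaged probe sets. Low signals limit ARG1, CCL20, CD36, CPA3, CSF3, EPDR1, F3, FASLG, FOSL1, GP9, IL6, POPDC2, RALGPS1 and TIFAB, and the 0 h level of MARCO.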
